A study of Mus musculus with 160 samples.

Results

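The clustered protocadherins are 3 neighbouring families of cell-adhesion genes on a single mouse chromosome, here taken as every row of the deposited tables whose gene symbol starts with Pcdha, Pcdhb or Pcdhg followed by a digit, a, b or c. The rule found 58 of 43432 rows, of which 14 belonged to the alpha cluster, 22 to the beta cluster and 22 to the gamma cluster. Within alpha there were 12 alternate members and 2 C-type members (Pcdhac1 and Pcdhac2), and within gamma 12 A-type, 7 B-type and 3 C-type members (Pcdhgc3, Pcdhgc4 and Pcdhgc5). The symbol Pcdha11 was carried by 2 rows, which are told apart by their Ensembl identifiers ENSMUSG00000007440 and ENSMUSG00000102206.

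The proteins are cadherins, most of which bind the same protein on a touching cell, and neurons use the combination they display to tell their own branches from those of other neurons. A neuron chooses its alternate members through promoters that are opened by demethylation and by loops that CTCF and cohesin make to distant enhancers, whereas the C-type members are used more evenly among neurons. In alpha and gamma, each member has its own large first exon for the outside of the protein and shares the last exons, which encode a common intracellular tail, while a beta gene is complete in its own exon and has no such common tail.

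The study measured RNA of C57BL/6J mice at 6 months of age, 32 animals in all, in 2 brain regions (striatum and cortex) and in heart, liver and tibialis muscle. Wild-type (WT) mice on vehicle were compared with mice heterozygous for Q175, a knock-in Htt allele with an expanded CAG repeat that models Huntington's disease, on vehicle or on 30 or 100 mg/kg of CHDI-00390576, an inhibitor of class IIa histone deacetylases. Oral dosing b.i.d. began at 4 weeks in every group, WT included, and no WT mouse received the compound. Each group held 8 mice (4 males and 4 females) in each tissue, and libraries are named below by group, sex (M or F) and replicate number.

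Total estimated counts ran from 30733693 to 38474841 in the striatum libraries and from 29814473 to 39306573 in the cortex libraries. Medium spiny neuron markers were present in every striatum, and in WT animals 8 of 8 were higher in striatum than in cortex. Htt, the targeted gene, was measured at 112 to 151 CPM (read counts scaled to the library total) in WT striatum and at 78.5 to 116 CPM in the 3 Q175 groups, and its reads do not report the repeat. A few libraries stood apart. In 3 Q175 striata (the libraries labelled vehicle M2, 100 mg/kg M3 and 100 mg/kg M4) Wt1 lay at 0.0602 to 0.136 CPM, inside the WT range of 0 to 0.269 CPM, although it reached 5.94 CPM in the other Q175 striata. In the same 3 libraries Htt stood at 88.8, 78.5 and 81.3 CPM, below every WT striatum. Transcripts enriched in another tissue, summed, exceeded the region's median by more than 0.1% of their level in that tissue in 5 striatum libraries, all for the liver-enriched set: WT M1 (0.339%), M2 and M3, Q175 vehicle F1 (0.506%) and 100 mg/kg F2. The 3 WT libraries held the liver gene Alb, at 299.8, 130.5 and 59.8 CPM, against at most 2.81 CPM in any other striatum. Q175 vehicle F1 and 100 mg/kg F2 held Alb at 0.234 and 0.288 CPM, but Ttr, which liver and choroid plexus share, at 1564 and 482 CPM and the choroid plexus gene Kl at 77.9 and 21.4 CPM. The same limit was passed by 5 cortex libraries, of which 30 mg/kg F4 held muscle-enriched transcripts at 28.8% of their level in tibialis and 30 mg/kg M3 at 6.30%. Cortex Q175 vehicle M3 and WT M3 held fewer long transcripts than any other library, as described further on. The counts of members called are given with and without these libraries.

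All 58 members passed the filter on low counts in striatum and 57 did in cortex, where Pcdhb1 did not. In heart 41 passed, in tibialis 35 and in liver 20. Levels can be compared between members only per length, so they are given here as FPKM, fragments per kilobase of transcript, scaled to the library total. Summed over its members, the alpha cluster stood at 27.4 ± 2.78 FPKM in striatum (SD, n = 32 libraries, all groups) and 38.5 ± 3.67 FPKM in cortex, against means of 0.129 in heart and 0.0185 in liver. In tibialis its mean was 0.366 and its median 0.0237 FPKM. The beta cluster summed to 53.8 ± 8.03 FPKM in striatum and 40.7 ± 5.38 FPKM in cortex, and the gamma cluster to 136 ± 23.6 and 119 ± 22.0 FPKM. Gamma was the most abundant cluster in both regions, with 62.4% of the summed FPKM in striatum and 59.7% in cortex, while alpha made up 12.8% and 19.6% and beta 24.9% and 20.7%. Gamma was also found outside the brain, at 20.8 FPKM in heart, 7.20 in tibialis and 4.38 in liver.

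The C-type members other than Pcdhac1 had the highest mean levels of the alpha and gamma clusters. Pcdhgc4, which in mouse is needed for the survival of interneurons, ran from 1.55 to 105 FPKM in striatum (mean 30.3, median 14.3) and from 8.12 to 139 FPKM in cortex (mean 36.1, median 29.5). Pcdhgc5, whose protein binds a GABA-A receptor subunit, ran from 6.29 to 28.2 FPKM in striatum (mean 16.9) and from 3.55 to 37.4 in cortex (mean 17.6). It lay above Pcdhgc4 in 18 of 32 striatum and 10 of 32 cortex libraries, so the order of these neighbours is not fixed. Pcdhgc3 had means of 10.4 and 10.96 FPKM. In the alpha cluster Pcdhac2, which spaces serotonergic axons in mouse, led with 6.87 FPKM in striatum and 10.01 in cortex, ahead of the alternate member Pcdha4 with 5.95 and 7.96 FPKM, while Pcdhac1, at 0.983 and 1.92 FPKM, ranked 11 and 7 of the 14 rows. The beta cluster was more even: Pcdhb20 (6.10 and 3.96 FPKM) and Pcdhb9 (5.25 and 4.60 FPKM) led it, and Pcdhb1 came last at 0.125 and 0.0644 FPKM.

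How far a member's value is its own differs between the clusters. In the reference annotation (GENCODE vM21) between 38.0% and 54.9% of the exon bases of an alpha member and between 27.8% and 66.8% of those of a gamma member are shared with other members, whereas 20 of 22 beta members share none and Pcdhb21 and Pcdhb22 share 9.7% and 6.9%. Reads from shared exons had to be divided among members by the counting program, so single alpha and gamma values are uncertain. Beta values are not free of this, because counts that are not whole numbers come from divided reads. The median member had such counts in 34.4% of brain libraries for beta and in 100% for alpha and for gamma. Among beta members the share was 98.4% for Pcdhb9, 100% for Pcdhb12, 57.8% for Pcdhb17 and 15.6% for Pcdhb3. Pcdhgc4 was the extreme case: the length implied by its FPKM and count ran from 2272 to 5025 bases between libraries, with a median of 2383. Antisense and predicted genes overlap some members as well, and whether counting used the strand is not given in the sources used here.

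The comparison of Q175 vehicle with WT vehicle striatum asked which members the mutation moved. 9 members were higher in Q175 and 0 were lower, all 9 of the beta cluster (edgeR quasi-likelihood test, Benjamini-Hochberg adjusted over all 17229 genes tested). Among all genes tested 2.59% were higher, 3.16% lower and 5.76% were called in either direction. The beta members had a median log2 fold change of 0.33 and 19 of 22 lay above 0, against medians of -0.03 for alpha, -0.03 for gamma and 0.02 for all genes. Of all genes 53.1% lay above 0. The direction alone was not particular to striatum, since 85.7% of the 21 beta members tested in cortex lay above 0 as well. At an unadjusted p under 0.05 there were 21 members, 36.2% of the 58, and 12 of the 22 beta members, against 21.5% of all genes tested.

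Pcdhb3 showed the largest change. Its CPM was 2.996 at the lowest, 4.39 at the median and 5.83 at the highest in WT striatum, and 4.90, 7.13 and 8.65 in Q175 vehicle. 7 of 8 Q175 libraries lay above the highest WT library and the 8th, the library labelled M2, lay inside the WT range. The log2 fold change was 0.69 ± 0.104 (SE; adjusted p = 7.23e-05). Pcdhb9, one of the most abundant beta members, went from 7.63, 10.5 and 14.2 CPM in WT to 12.7, 17.1 and 18.3 CPM in Q175 vehicle, with 7 of 8 libraries above the WT range. Its log2 fold change was 0.59 ± 0.112 (adjusted p = 0.00117). Pcdhb17 went from 15.2, 16.4 and 20.5 CPM to 19.8, 23.3 and 24.6 CPM, again with 7 of 8 libraries above every WT library, and changed by 0.39 ± 0.0747 on the log2 scale (adjusted p = 0.00108).

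The other called members moved with more overlap. Pcdhb12 rose from 4.35, 6.16 and 8.84 CPM in WT to 7.24, 9.40 and 11.01 CPM (log2 fold change 0.54 ± 0.121, adjusted p = 0.005), and Pcdhb22 from 8.99, 10.4 and 14.5 CPM to 12.4, 16.4 and 18.3 CPM (0.50 ± 0.116, adjusted p = 0.00796). In both, 6 of 8 Q175 libraries lay above the WT range. Pcdhb13 (6.26, 8.53 and 10.7 CPM in WT, 8.54, 11.5 and 13.2 in Q175 vehicle) had 6 of 8 above it and Pcdhb5 (2.95, 4.48 and 5.21, then 4.42, 5.68 and 6.85 CPM) had 7 of 8. Their log2 fold changes were 0.42 (adjusted p = 0.0215) and 0.39 (adjusted p = 0.0372). Pcdhb15 (1.85, 2.74 and 3.36, then 2.92, 3.504 and 4.98 CPM) and Pcdhb20 (14.0, 16.8 and 20.3, then 17.8, 20.7 and 25.8 CPM) had 5 of 8 above the WT range. Their log2 fold changes were 0.42 (adjusted p = 0.0211) and 0.33 (adjusted p = 0.0412). No member had every Q175 vehicle library above every WT library, which 0.342% of all genes did.

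**Figure D1:**
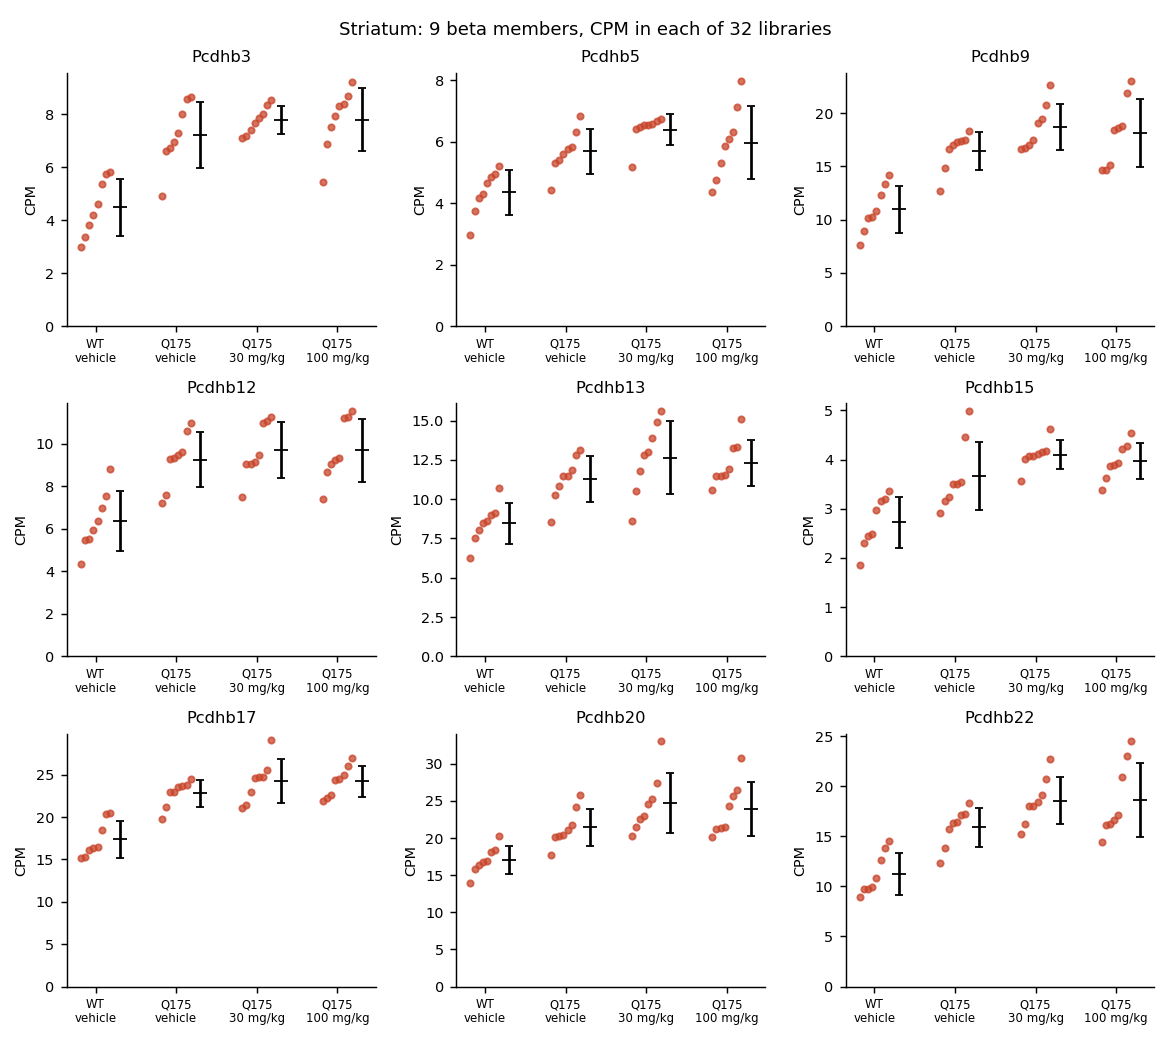
CPM of 9 beta members in each of 32 striatum libraries (y axis, from 0), by group on the x axis; a dot is a library and the bar is the group's mean ± SD (n = 8). The means of the 3 Q175 groups lie above that of WT in each panel, and the vehicle dots overlap those of WT in each panel.

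The rise was not shared by the whole cluster. Pcdhb8 stood at 7.36 CPM at the median in WT and 5.98 in Q175 vehicle (log2 fold change -0.31 ± 0.133, adjusted p = 0.174), and Pcdhb6, Pcdhb11 and Pcdhb14 had log2 fold changes of 0.01, 0.00 and 0.03. Pcdhb4 (0.37, adjusted p = 0.125), Pcdhb7 (0.28, adjusted p = 0.135) and Pcdhb16 (0.29, adjusted p = 0.253) pointed up without passing. In gamma the values ran both ways: Pcdhga1, Pcdhga2 and Pcdhgb1, near the start of the cluster, had log2 fold changes of 0.46, 0.56 and 0.51 (adjusted p = 0.124, 0.0613 and 0.0702), and Pcdhga6, Pcdhga7, Pcdhgb4 and Pcdhga8, which lie next to each other, had -0.55, -0.38, -0.40 and -0.48 (adjusted p = 0.0617, 0.212, 0.266 and 0.151). These gamma members were chosen after their values were seen. Pcdhga3, which lies between Pcdhga2 and Pcdhgb1, ran from 11.5 to 30.1 CPM in WT and from 8.55 to 30.8 CPM on vehicle. Gamma members share exons, so values of neighbours are not independent. Pcdha7 led the alpha members with 0.53 (adjusted p = 0.0833). None of these passed by edgeR. By DESeq2, 14 members passed: the same 9, Pcdha7, Pcdhga2 and Pcdhgb1 higher, and Pcdhga6 (log2 fold change -0.55, adjusted p = 0.0306) and Pcdhgb8 (-0.29, adjusted p = 0.0336) lower. The share of all genes that DESeq2 called in this comparison is not given here.

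**Figure D2:**
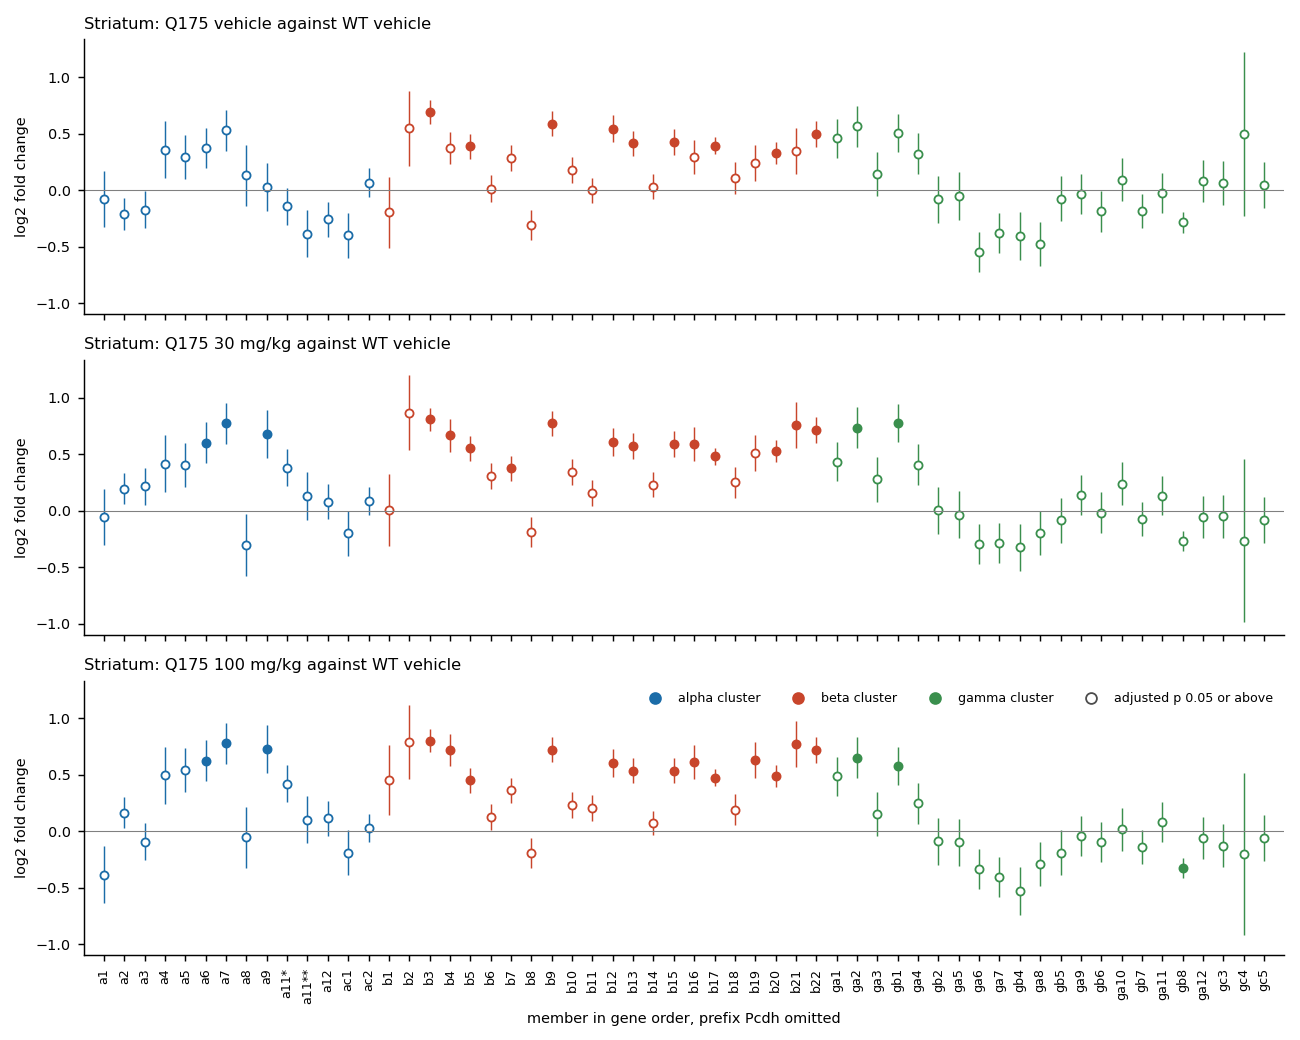
Log2 fold change against WT vehicle (y axis) of each of 58 members in striatum, in gene order on the x axis (prefix Pcdh omitted; a11* is ENSMUSG00000007440 and a11** is ENSMUSG00000102206), for Q175 mice on vehicle, 30 mg/kg and 100 mg/kg. Bars are ± SE and filled dots have an adjusted p under 0.05: 9, 18 and 19 members, and the 3 panels share the WT libraries.

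The count of 9 moved with the libraries used. Without the 5 striata over the limit 4 members passed (Pcdhb3, Pcdhb9, Pcdhb15 and Pcdhb17), where 1.99% of all genes did, and the same 4 passed without the 3 WT striata that held Alb. For the other 5 the log2 fold changes without the 5 striata were 0.41 ± 0.145 for Pcdhb12, 0.41 ± 0.132 for Pcdhb13, 0.43 ± 0.136 for Pcdhb22, 0.36 ± 0.135 for Pcdhb5 and 0.33 ± 0.123 for Pcdhb20, with adjusted p between 0.095 and 0.165. Without Q175 vehicle F3 alone 5 members passed. Without the 3 Q175 striata whose Wt1 lay in the WT range 11 passed, with Pcdhb4 (0.43, adjusted p = 0.0452) and Pcdhb7 (0.35, adjusted p = 0.0368) added. Wt1 itself differed by genotype (mean 0.109 CPM in WT and 3.79 CPM on vehicle). Leaving out Q175 libraries by low Wt1 can by itself enlarge a genotype difference, so the added calls are no support. For the fits without vehicle F3, without the 3 WT striata and without the low-Wt1 striata, the share of all genes called is not given. Their changed counts need not be particular to the members. Pcdhb3, Pcdhb9, Pcdhb12, Pcdhb17 and Pcdhb22 passed in all 32 fits that left out a single library, Pcdhb5 in 24 and Pcdhb20 in 21. Medium spiny neuron markers, summed, fell in the same comparison, from 5471 to 7003 CPM in WT to 3635 to 5238 CPM in Q175 vehicle, with 4 of 8 markers called lower and none of the 8 at 0. Of 5 oligodendrocyte markers 2 were lower (summed ranges 6655 to 7605 and 4707 to 6790 CPM), as were 2 of 3 tested liver markers, Alb and Apoa2 (summed ranges over the list, which includes Ttr, of 6.17 to 370 and 9.003 to 1564 CPM). The 5 choroid plexus markers ran from 26.7 to 214 CPM summed in WT and from 31.3 to 1712 CPM in Q175 vehicle, with 0 called, as was the case for 5 astrocyte, 5 microglia, 6 interneuron and 4 general neuron markers. Their part in the protocadherin result was not tested, and in bulk tissue fewer cells of a type and less RNA per cell cannot be told apart.

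In Q175 mice on the compound, 18 members were higher than in WT vehicle at 30 mg/kg and 0 lower, against 3.32% higher, 3.37% lower and 6.69% in either direction among all genes. The 100 mg/kg group had 18 higher and 1 lower, against 2.4%, 2.54% and 4.94%. Both comparisons share the WT libraries with the comparison on vehicle, so the 3 are given side by side and not as replication. At each dose 13 of the members were beta, 3 were alpha (Pcdha6, Pcdha7 and Pcdha9) and 2 were gamma (Pcdhga2 and Pcdhgb1), and the beta members had median log2 fold changes of 0.54 and 0.51.

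Every beta member that was called on vehicle was called at both doses. At 30 mg/kg Pcdhb3 spanned 7.11, 7.78 and 8.55 CPM, above every WT library, and at 100 mg/kg 5.45, 8.14 and 9.24 CPM, with overlap. The log2 fold changes against WT were 0.81 ± 0.104 (adjusted p = 9.3e-06) and 0.80 ± 0.104 (adjusted p = 1.06e-05). Pcdhb9 spanned 16.6, 18.3 and 22.6 CPM and then 14.6, 18.5 and 23.0 CPM, apart from WT at both doses, with log2 fold changes of 0.77 and 0.72. Pcdhb17 (0.48 and 0.47) and Pcdhb15 (0.59 and 0.54) were also apart from WT at both doses, and Pcdhb22 (0.72 and 0.72) at 30 mg/kg. Members with no overlap thus numbered 5 and 3 at the lower and higher dose, where 0.662% and 0.389% of all genes had every Q175 library above every WT library. Pcdhb12, Pcdhb13, Pcdhb20 and Pcdhb5 had log2 fold changes of 0.61, 0.57, 0.53 and 0.55 at 30 mg/kg and of 0.60, 0.54, 0.49 and 0.45 at 100 mg/kg.

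Further beta members passed against WT at a dose. Pcdhb4 went from a median of 1.73 CPM in WT and 2.46 on vehicle to 2.87 and 3.08 CPM at the doses (log2 fold change against WT 0.67 and 0.72, adjusted p = 0.00285 and 0.00197). Pcdhb16 (0.59 and 0.61) and Pcdhb21 (0.76 and 0.77) passed at both doses. Pcdhb7 passed at 30 mg/kg (0.38, adjusted p = 0.0356) and not at 100 mg/kg (0.36, adjusted p = 0.0536), and Pcdhb19 the other way round (0.51, adjusted p = 0.052, and 0.63, adjusted p = 0.017). Neither differed between the doses by edgeR, where 0 of 58 members were called.

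3 alpha members passed against WT at both doses. Pcdha6 went from a median of 4.99 CPM in WT and 7.27 on vehicle to 7.35 and 8.31 CPM at the doses (log2 fold change against WT 0.60 and 0.62, adjusted p = 0.0378 and 0.0381). Pcdha7 went from 3.39 and 4.38 to 5.59 and 5.41 CPM (0.77 and 0.78, adjusted p = 0.00663 and 0.00865). Pcdha9, with medians of 5.38 CPM in WT and 5.91 on vehicle, stood at 8.51 and 8.21 CPM at the doses (0.68 and 0.73, adjusted p = 0.0466 and 0.0397). For all 3 the ranges overlapped those of WT, and none passed at either dose without the 5 striata over the limit, where their log2 fold changes lay between 0.45 and 0.54. Pcdha7 passed at both doses in all 32 fits that left out a single library, whereas Pcdha9 passed in 12 at the lower dose and in 23 at the higher, and Pcdha6 in 23 and 21. Pcdha8, which lies between them, had log2 fold changes of -0.31 ± 0.273 and -0.05 against WT.

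In gamma, Pcdhga2 had medians of 12.7 CPM in WT, 19.0 on vehicle, and 21.7 and 19.9 at the doses (log2 fold change against WT 0.74 and 0.65, adjusted p = 0.0106 and 0.0324). Pcdhgb1 had medians of 7.67, 10.9, 12.6 and 11.2 CPM (0.78 and 0.58, adjusted p = 0.00333 and 0.0397). Pcdhgb8 was the member called lower, at 100 mg/kg, with medians of 3.67, 2.94, 3.03 and 3.04 CPM and a log2 fold change of -0.33 ± 0.0921 (adjusted p = 0.0343). Without the 5 striata over the limit, 9 members passed for the lower dose, all beta, and 9 for the higher, 8 beta members higher and Pcdhgb8 lower, where 3.02% and 2.1% of all genes were called. Without the 3 WT striata that held Alb the counts were 10 and 9. The shares of all genes called in the latter fits are not given, so these counts need not be particular to the members. In the comparisons with WT, medium spiny neuron markers were called lower for 7 of 8 at 30 mg/kg and 6 of 8 at 100 mg/kg, with summed ranges of 3807 to 4182 and 3794 to 6317 CPM. Their part was not tested.

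Against Q175 vehicle, no member passed the threshold in striatum: 0 of 58 were called by edgeR at 30 mg/kg and 0 at 100 mg/kg, where 0.0% of all genes were called at each dose, and DESeq2 called 0 members at each. The smallest adjusted p was 0.288 for the lower and 0.199 for the higher dose. An unadjusted p under 0.05 was seen for 10 members at each dose, 17.2% of the 58, all higher than on vehicle. Among all genes 16.7% and 24.6% reached it in either direction and 6.79% and 10.1% did so upward. All 22 beta members had log2 fold changes above 0 at both doses, with medians of 0.18 and 0.12, and 13 of 14 and 11 of 14 alpha members did, with medians of 0.24 and 0.25, where 50.2% and 49.5% of all genes lay above 0. Both doses were set against the same 8 vehicle libraries. The members furthest from 0 were Pcdha9 (0.65 ± 0.210 at 30 mg/kg and 0.70 ± 0.211 at 100 mg/kg) and Pcdha11 in row ENSMUSG00000007440 (0.52 ± 0.164 and 0.56 ± 0.164), apart from Pcdhgc4 with -0.76 ± 0.721 and -0.70 ± 0.726, whose SE is as large as its change. Between the doses 0 members were called and 0 had an unadjusted p under 0.05.

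Summed per library, the beta cluster in striatum ran from 35.4 to 47.8 FPKM in WT (median 43.4), from 45.5 to 60.3 on Q175 vehicle (median 57.2), and from 55.7 to 63.7 and 48.9 to 65.5 in the 30 and 100 mg/kg groups. The group means were 1.29, 1.37 and 1.35 times that of WT. In FPKM both dosed groups lay above every WT library, and Q175 vehicle overlapped WT through its lowest library. Summed in CPM the beta means were 1.22, 1.39 and 1.36 times that of WT, and each of the 3 groups overlapped WT, whose libraries ran from 153.5 to 224 CPM. That library, labelled vehicle M2, and the lowest at 100 mg/kg, M3 (49.0 FPKM) and M4 (48.9 FPKM), were the same 3 whose Wt1 lay in the WT range. Without them the lowest sums were 52.7 FPKM on vehicle and 53.3 FPKM at 100 mg/kg. These libraries were picked by a gene that differs by genotype, so the wider gap is no separate support. The alpha sums had means of 24.6 ± 2.52 FPKM in WT, 27.1 ± 1.79 on vehicle, and 29.0 ± 2.20 and 29.0 ± 2.28 at the doses. The gamma means were 135 ± 16.8, 153 ± 25.2, 131 ± 24.9 and 126 ± 21.5 FPKM in the same order, with overlapping ranges.

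**Figure D3:**
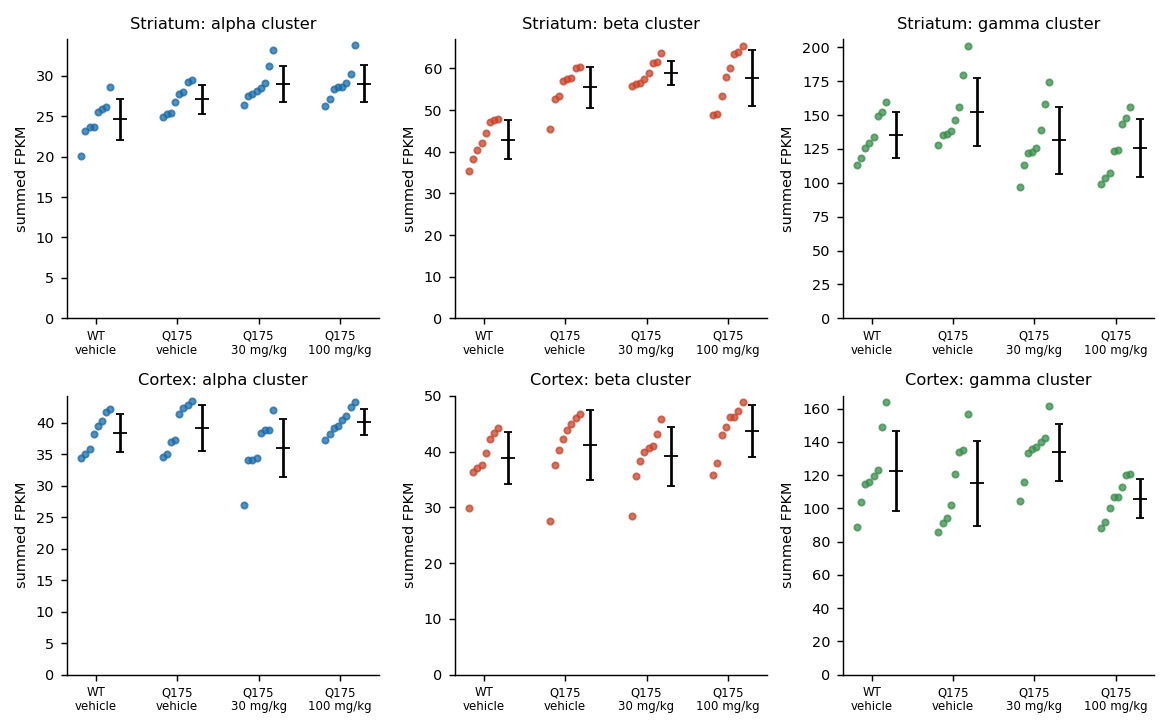
FPKM summed over the members of each cluster (y axis, from 0) in each library, by group on the x axis, for striatum (top) and cortex (bottom). Bars are mean ± SD (n = 8); beta in striatum has means of 42.9, 55.5, 58.9 and 57.7 FPKM from left to right, and the other panels overlap throughout.

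In cortex, 0 of 57 members were called by edgeR in any of the 6 comparisons of groups. Of all genes, 0.0341% were called for Q175 vehicle against WT, 0.318% for 30 mg/kg against vehicle, 0.0% for 100 mg/kg against vehicle, 0.693% (0.0341% higher and 0.659% lower) for 100 against 30 mg/kg, 0.688% for 30 mg/kg against WT and 0.0455% (0.017% higher and 0.0284% lower) for 100 mg/kg against WT. The members with an unadjusted p under 0.05 numbered 0, 4, 2, 8, 1 and 2 in that order, against 3.21%, 16.1%, 3.47%, 45.8%, 10.95% and 8.39% of all genes. Without the 5 cortex libraries over the limit 0 members were called in any of the 6 comparisons by edgeR or by DESeq2, and the smallest adjusted p of a member by edgeR was 0.556. With all libraries DESeq2 called 4 members higher at 100 than at 30 mg/kg (Pcdha3, Pcdhb3, Pcdhb4 and Pcdhb17, log2 fold changes 0.45, 0.29, 0.57 and 0.28), where it called 26.9% of all genes, and 0 members in the other comparisons. For 100 against 30 mg/kg edgeR called members when some single libraries were left out: 9 without 30 mg/kg M2, 7 without Q175 vehicle M3, 4 without 30 mg/kg M1, 3 without 100 mg/kg F4, 2 without WT F3 and 1 without WT F2 or Q175 vehicle F4. In these fits between 14.6% and 40.4% of all genes were called, a larger share than of the members.

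The leading beta members of striatum were not called in cortex. Pcdhb3 had 5.85, 7.38 and 8.85 CPM (lowest, median and highest) in WT cortex and 6.08, 7.64 and 9.48 CPM in Q175 vehicle cortex (log2 fold change 0.12 ± 0.110, adjusted p = 1). Pcdhb9 had 11.2, 13.8 and 14.8 CPM and then 10.9, 14.1 and 17.3 CPM (0.09 ± 0.0913, adjusted p = 1). In Q175 vehicle 3 of 8 libraries lay above the highest WT library for Pcdhb3, and for Pcdhb9 2 lay above the WT range and 1 below it. The genotype median of the beta members in cortex was 0.06, and summed beta FPKM had means of 38.8 ± 4.66 in WT, 41.2 ± 6.29 on vehicle, and 39.1 ± 5.27 and 43.7 ± 4.62 at the doses. Of the 21 beta members tested in cortex 85.7% lay above 0 for genotype, against 86.4% in striatum. Among all genes in cortex 53.1% did. Members measured in the same libraries are not independent.

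Whether the genotype effect differed between the regions was tested on each animal's striatum minus cortex difference with limma. The effect was larger in striatum for 2 members, Pcdhb3 by 0.58 ± 0.107 on the log2 scale (adjusted p = 0.0108) and Pcdhb9 by 0.51 ± 0.104 (adjusted p = 0.0263), where 0.0651% of all genes were called higher, 0.0829% lower and 0.148% in either direction. An unadjusted p under 0.05 was seen for 10 members, 17.5% of 57, against 5.88% of all genes. Without the animals of libraries over the limit for another tissue 0 members passed, and 1 passed when any of 9 animals was left out (WT M1, M4, F1, F2 and F3, and Q175 vehicle M1, M3, M4 and F1, as numbered in striatum). For the dose effects 0 members passed by limma at either dose, where 0.0% of all genes did. Those with an unadjusted p under 0.05 numbered 11 and 1, against 41.1% and 1.44% of all genes, and the smallest adjusted p was 0.0813 and 0.999. The animal of striatum vehicle M2 is also that of cortex vehicle M3, the cortex library with the fewest long transcripts, and without this animal 16 members passed for 30 mg/kg, where 41.7% of all genes did. Without the animals of the 3 striata with low Wt1, of which it is one, 16 passed, where 40.9% of all genes did. Without the animal of striatum vehicle F4 13 passed (11 higher, 2 lower), where 37.8% of all genes did. The members' shares were below those of all genes in each of the 3 fits.

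The regions were also compared with each other. In WT mice, each animal's striatum was compared with its own cortex for 57 members: 22 were higher in striatum and 8 lower (edgeR, animal as a block), where 23.1% of all genes were higher, 24.0% lower and 47.1% called in either direction. The clusters went different ways, with median log2 fold changes of -0.46 for alpha, 0.26 for beta and 0.63 for gamma. Called higher were 9 beta, 7 gamma A and 6 gamma B members, and no alpha and no gamma C-type member. Called lower were 6 alpha members (Pcdha5, Pcdha6, Pcdha7, Pcdha9, Pcdha11 in row ENSMUSG00000102206 and Pcdhac1) and Pcdhb3 and Pcdhb5.

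Pcdhb6 had the largest difference, with 6.81, 8.73 and 10.4 CPM in WT striatum against 2.65, 3.33 and 3.61 CPM in WT cortex. No library of one region reached the other, and the log2 fold change was 1.43 ± 0.0939 (adjusted p = 1.5e-07). Pcdhga6, the most abundant A-type member of striatum, had 38.8, 60.1 and 77.3 CPM against 9.29, 27.8 and 30.2 CPM (1.29 ± 0.179, adjusted p = 0.000112) and was again higher in striatum in 8 of 8 animals. Pcdhga7 (1.16), Pcdhgb6 (1.02), Pcdhb18 (0.88), Pcdhb8 (0.87) and Pcdhb14 (0.81) were each higher in 8 of 8 animals.

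The members that were lower in WT striatum include 2 that Q175 raised there. Pcdhb3 had 3.11, 4.55 and 5.98 CPM in WT striatum against 5.56, 6.96 and 8.50 CPM in WT cortex and was lower in striatum in 8 of 8 animals (log2 fold change -0.57, adjusted p = 0.000835). Pcdhb5 was lower in striatum in 8 of 8 animals as well (-0.40). Pcdha7 had medians of 3.495 CPM in striatum and 5.20 in cortex (-0.75, adjusted p = 0.00245), and Pcdhac1, a C-type member, had 6.55 and 10.5 CPM (-0.76). These comparisons and the genotype comparison share the WT striatum libraries. Without the libraries over the limit for another tissue, 13 members passed higher and 10 lower, where 30.3% of all genes were called.

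**Figure D4:**
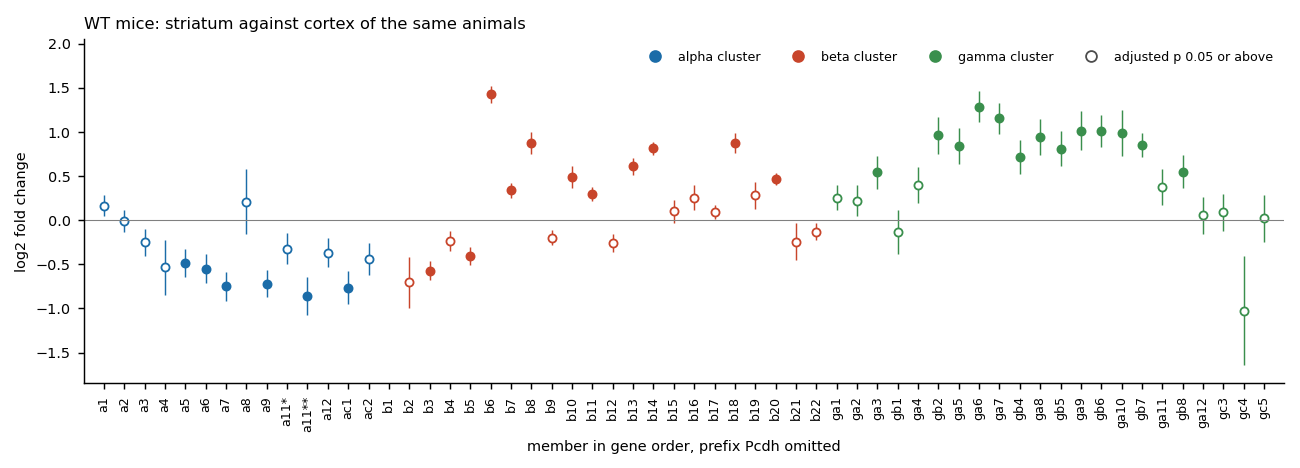
Log2 fold change of WT striatum against WT cortex of the same animals (y axis; above 0 is higher in striatum) for 57 members in gene order on the x axis (prefix Pcdh omitted; a11* is ENSMUSG00000007440 and a11** is ENSMUSG00000102206; Pcdhb1 was not tested). Bars are ± SE (n = 8 animals) and filled dots have an adjusted p under 0.05: Pcdhb6 lies highest at 1.43, and a run of gamma A and B members lies near 1.

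The C-type members were not called between groups. Pcdhac1, Pcdhac2, Pcdhgc3, Pcdhgc4 and Pcdhgc5 did not pass by edgeR in any comparison of groups in either region. Pcdhgc4 had 9.84, 43.5 and 151 CPM (lowest, median and highest) in WT striatum and 6.68, 110 and 225 CPM on Q175 vehicle, and its log2 fold change of 0.50 ± 0.726 was not called (adjusted p = 0.711). Pcdhgc3 had medians of 49.1 and 57.5 CPM and Pcdhgc5 of 78.0 and 88.4 CPM in the same groups, with ranges that overlapped. Pcdhac2 had medians of 39.3, 43.9, 41.4 and 41.3 CPM in WT, vehicle, 30 and 100 mg/kg striatum, and its log2 fold changes against WT lay between 0.03 and 0.09. Pcdhac1 had medians of 6.37 CPM in WT and 4.30 on vehicle (log2 fold change -0.40 ± 0.198, adjusted p = 0.234). Pcdha4, the most abundant alternate alpha member, had 20.4 and 19.7 CPM there (0.36 ± 0.253, adjusted p = 0.408).

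The spread of Pcdhgc4 went with a property of the libraries. For each library, the median deviation in log2 CPM of genes with transcripts over 8000 bases was taken, minus that of genes under 1500 bases (418 and 1720 genes in striatum, 439 and 1811 in cortex, members left out). This measure was chosen after the data were seen. Its group means were 0.06, -0.17, 0.04 and 0.09 for WT, vehicle, 30 and 100 mg/kg in striatum, and -0.15, -0.13, -0.36 and 0.22 in cortex. The lowest libraries were cortex Q175 vehicle M3 at -1.86 and WT M3 at -1.09.

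Over the 32 libraries of a region, which share tissue, depth range and kit, summed gamma C-type FPKM fell as the measure rose, with Pearson r = -0.83 and Spearman rho = -0.85 in striatum and -0.96 and -0.96 in cortex, and r = -0.82 and -0.94 without the 2 libraries farthest from the median. That sum follows Pcdhgc4, whose log2 CPM had r = -0.65 in striatum and -0.85 in cortex, whereas Pcdhgc3 had r = -0.01 and 0.43 and Pcdhgc5 -0.17 and 0.45. In log2 CPM the alpha C-type members went the other way, Pcdhac1 with r = 0.55 and 0.80 and Pcdhac2 with 0.28 and 0.795. Their summed FPKM had r = 0.02 (rho = 0.009) in striatum. In cortex that sum had r = 0.69 (rho = 0.25), and r = 0.30 without the 2 farthest libraries. Within the 2 forms of column name, for the gamma C-type sum, r was -0.89 (n = 14) and -0.73 (n = 18) in striatum and -0.97 (n = 13) and -0.94 (n = 19) in cortex. The beta sum rose with it in cortex (r = 0.89, rho = 0.87, r = 0.84 without the 2 farthest), where no member was called between groups. In striatum the beta sum had r = 0.08 (rho = 0.14) over all 32 libraries and r = 0.89 within the 8 WT libraries, and gamma A had r = 0.08 (rho = 0.06). These are sums of FPKM. In log2 CPM single beta members in striatum had a median r of 0.30 (from -0.08 to 0.68), and gamma A members 0.21 (from -0.16 to 0.59).

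**Figure D5:**
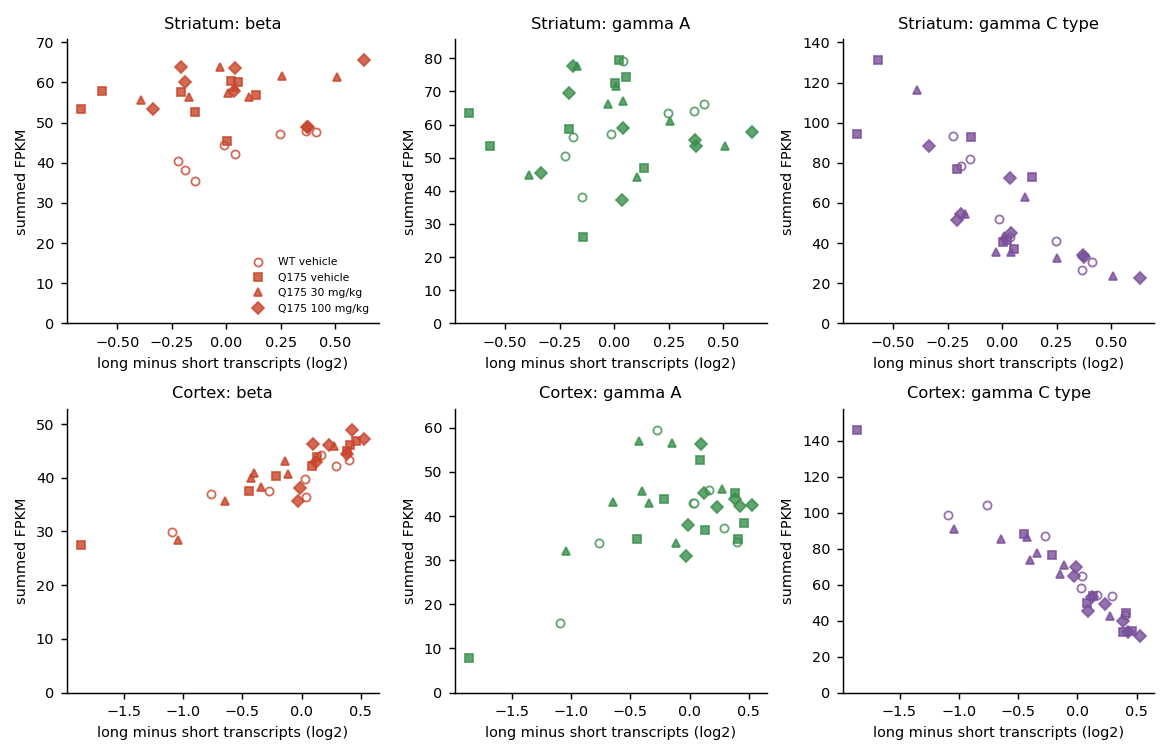
Summed FPKM of beta, gamma A and gamma C-type members (y axis, from 0) against the long minus short transcript measure (x axis, log2) in each of 32 striatum (top) and 32 cortex (bottom) libraries, with symbols for the 4 groups. Gamma C-type sums fall with the measure in both regions (r = -0.83 and -0.96), and the striatum beta sums show r = 0.08 over all groups and 0.89 within WT.

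The comparisons were repeated with the measure as a covariate, a choice made after seeing the data. For Q175 vehicle against WT in striatum 18 members then passed, all higher, where 4.42% of all genes were higher: 13 beta, 2 alpha (Pcdha6 and Pcdha7) and 3 gamma (Pcdhga1, Pcdhga2 and Pcdhgb1). The log2 fold changes were 0.71 ± 0.106 for Pcdhb3, 0.69 ± 0.104 for Pcdhb9 and 0.48 ± 0.0603 for Pcdhb17. Pcdhb16 (0.53, adjusted p = 4.66e-05), Pcdhb19 (0.50), Pcdhb21 (0.65) and Pcdhb2 (0.95) were added to the beta members. At 30 mg/kg against WT 23 were higher and 1 lower, where 9.21% of all genes were higher, and at 100 mg/kg 21 and 1, where 6.4% were. In cortex 0 members passed in any comparison of groups. For the difference between regions 10 members passed, all beta, where 0.361% of all genes were higher. What sets the measure, and its part in the results, was not tested.

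Of 27 genes for promoter choice and silencing, which include Ctcf, the cohesin subunits, Smchd1, Setdb1 and the DNA methyltransferases, 1 passed for Q175 vehicle against WT in striatum, where 5.76% of all genes did. Wiz, a zinc finger partner of the G9a methyltransferase, was higher (11.7 CPM in WT against 17.97, log2 fold change 0.62, adjusted p = 0.0397). Ctcf stood at 91.3 and 84.6 CPM (-0.11, adjusted p = 0.337) and Setdb1 at 65.8 and 65.1 CPM. Dnmt3a, a DNA methyltransferase of neurons, was lower than in WT at 30 and 100 mg/kg (116 CPM against 99.9 and 99.5, log2 fold change -0.22 and -0.23, adjusted p = 0.0106 and 0.0114). How many of the 27 passed at the doses is not given here. Between WT striatum and cortex 13 of these genes were higher and 3 lower.

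Single calls in lists of this size are near the share of all genes called, which was 5.76% on vehicle, 6.69% for the lower and 4.94% for the higher dose against WT. Of 15 intracellular partners, 2 subunits of the WAVE complex of actin assembly were lower in Q175 vehicle than in WT striatum, Cyfip2 (-0.27, adjusted p = 0.00211) and Nckap1 (-0.39, adjusted p = 0.0375). Of 6 genes for the proteolysis that releases the tail, among them Adam10 and the gamma-secretase subunits, 0 passed there by edgeR. Of 19 tested protocadherins and large cadherins outside the clusters, 3 were higher in Q175 vehicle and 0 lower: Pcdh20 (9.91 against 18.6 CPM, 0.91 ± 0.138, adjusted p = 7.45e-05), Fat1 (0.48) and Pcdh19 (0.58). Against WT 5 were higher at each dose, Pcdh20 (1.15 and 1.07), Pcdh19 (0.74 and 0.82), Pcdh11x (0.51 and 0.64), Pcdh10 (0.41 and 0.50) and Fat1. Of 13 tested genes that flank the clusters on the chromosome, 1 passed on vehicle (Hars, a histidyl-tRNA synthetase, 0.20, adjusted p = 0.0228) and 1 at 100 mg/kg (its neighbour Hars2, 0.17, adjusted p = 0.0463). In the comparisons of groups in cortex 0 genes of these lists passed.

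The genes outside the clusters whose log2 CPM was most like the summed beta level over the 32 striatum libraries, after removal of group and sex means, were Scaper (r = 0.90), Med23 (0.89), Slc5a7 (0.88), Zfp458 (0.87) and Rabgap1 (0.86). The beta members themselves had a median r of 0.71 with that sum, from which no member was left out, the alpha members 0.36 and the gamma members 0.37. Pcdhgc4 stood apart at -0.56.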

How the data were processed

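The deposited count table holds estimated counts and the deposited FPKM table fragments per kilobase scaled to the library total; both were made by the authors, and CASAVA 1.8.2 is the tool named in the submitters' processing notes. Which aligner, counting program, build and strand setting were used is not stated in those sources. Symbols came from the reference table of gene names, which matched 42462 identifiers and missed 970; exon sharing and gene order came from GENCODE vM21, whose build may differ from the authors'. Counts were rounded to whole numbers, and edgeR 4.0.16 under R 4.3.3 fitted each tissue separately (filterByExpr, TMM, robust quasi-likelihood, group and sex in the model). P-values were Benjamini-Hochberg adjusted over all genes tested, with a threshold of 0.05; standard errors came from the F statistics. Differences between regions used limma 3.58.1 on paired log2 CPM (prior count 2), and DESeq2 1.42.0 was an alternative. CPM here are TMM-scaled. The fits were tested on simulated data. Members, gene lists, markers and tests were chosen with earlier results of these data known. Members named are those past the threshold in a comparison, the C-type members and the 2 most abundant of each cluster and region; others shown were chosen after their values were seen. Alternatives, among them FPKM with a pseudocount of 0.1, are listed with their effect at the end. Reads carried no molecular identifiers as far as the labels say, and the part of duplicate reads in the counts was not tested. Each library is a different animal within its tissue. No sequences are shown.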

Additional observations from a re-analysis of the deposited data

Results flagged for a closer look

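The genotype effect differed between striatum and cortex by 0.58 on the log2 scale for Pcdhb3 and by 0.51 for Pcdhb9, both larger in striatum (limma, given above with their errors).

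Single libraries lay far from the other 7 of their group in 22 of 272 groups examined, and chance alone marks about 1 group in 20. Cortex Q175 vehicle M3 gave 10 of them. It had the lowest alpha C-type sum (2.50 FPKM, others 10.3 to 13.5), the lowest gamma A sum (7.79 FPKM, others 34.9 to 52.8) and the lowest CPM of Pcdhac1 (3.53), Pcdhac2 (9.95, others 54.0 to 69.9), Pcdhb13 (3.58), Pcdhga2 (2.24), Pcdhgb1 (1.21) and Pcdhgc5 (14.5, others 58.2 to 97.5). It had the highest Pcdhgc4 (298 CPM, others up to 149) and the highest Pcdha4 (102 CPM, others up to 45.1). Its long minus short transcript measure was the lowest of all cortex libraries.

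Cortex WT M3, the second lowest in that measure, had the lowest alpha C-type sum of WT (5.03 FPKM, others 10.9 to 14.9), the lowest Pcdha6 (4.74 CPM) and Pcdhgb1 (2.56 CPM), and the highest Pcdha4 (106 CPM, others up to 49.0). Cortex 100 mg/kg M1 had an alpha C-type sum of 9.85 FPKM (others from 12.3) and Pcdhac2 at 51.4 CPM (others from 62.8). Pcdha4 reached 45.8 CPM in cortex 30 mg/kg M1 (others up to 28.2) and 62.8 CPM in striatum Q175 vehicle F4 (others up to 30.2). Pcdhga2 reached 20.3 CPM in cortex WT F3 (others up to 12.6). In the 30 mg/kg striata the gamma C-type sum reached 116 FPKM in F4 (others up to 63.2), Pcdhb16 reached 22.7 CPM in M4 (others up to 16.3), and Pcdhb5 fell to 5.17 CPM in M1 (others from 6.42). What set these libraries apart was not tested.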

How the results depend on the processing

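No called member changed direction under any alternative. Among the cluster sums, beta in cortex at 30 mg/kg did: its mean was 1.008 times that of WT in FPKM and 0.944 times in CPM. For Q175 vehicle against WT striatum the count of 9 became 14 with DESeq2, 18 with the long against short transcript measure as a covariate, 4 without the libraries past the 0.1% limit for transcripts enriched elsewhere, and 4 without the 3 WT striata that held Alb, an alternative chosen after seeing the data; it was 9 with RLE size factors, 7 without a filter on low counts, 10 with limma on log2(FPKM + 0.1), 9 with the form of the column name as a covariate and 11 without the 3 striata with low Wt1. Against WT, 18 at 30 mg/kg became 9, and 19 at 100 mg/kg became 9, without those libraries, and 10 and 9 without the 3 WT striata. In cortex, 100 against 30 mg/kg went from 0 to 4 with DESeq2, and to 0 with DESeq2 without the libraries over the limit, also chosen after seeing the data. For the difference between regions, the genotype count of 2 became 10 with the transcript measure and 0 without those libraries, and the 30 mg/kg count of 0 became 16 without the animals of the 3 striata with low Wt1; leaving out 1 of them, that of striatum vehicle M2 and cortex vehicle M3, gave 16 by itself. With 1 library left out in turn, the counts ran from 5 to 11 for genotype in striatum, 14 to 21 at 30 mg/kg and 13 to 20 at 100 mg/kg against WT, 0 to 9 for 100 against 30 mg/kg in cortex, 27 to 31 for WT striatum against cortex, 1 to 2 for the genotype difference between regions and 0 to 16 for the 30 mg/kg difference. The comparisons with no member called in either direction, other than these, had none in each such fit. With the replicate block the striatum counts were 7, 18 and 18 against WT for vehicle, 30 and 100 mg/kg, and 27 for WT striatum against cortex, and no cortex member passed. The replicate numbers did not pair the libraries: correlations of same-numbered libraries ran from -0.72 to 0.72 in striatum and from -0.86 to 0.83 in cortex, and 5 of 32 libraries in each were closest to their own number. Depth limits the members of low level, such as Pcdhb1, and shared exons limit alpha and gamma. Among the fits against WT that left out a library, the members called lower numbered 0 to 1. For most of these fits the share of all genes called is not given, so a moved count need not be particular to the members. The fit without the low-Wt1 striata left out libraries by a gene that itself differs by genotype. The causes of these moves were not tested.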

Other observations

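Outside the brain the clusters kept different levels. Summed beta FPKM was 4.57 in heart, 2.07 in tibialis and 0.708 in liver (mean of 32 libraries each). The alpha sum in tibialis reached 4.61 FPKM in a WT library and 4.28 FPKM in a 100 mg/kg library, and 2.175 FPKM in a further WT library, although its median over the 32 tibialis libraries was 0.0237 FPKM. These 3 libraries also held the most RNA of the neuron genes Snap25, Syt1, Rbfox3 and Map2, summed at 539, 509.7 and 311 CPM against at most 7.09 CPM in the other 29, which had a mean alpha sum of 0.0225 FPKM. In liver 0 of 14 alpha, 4 of 22 beta and 16 of 22 gamma members passed the filter on low counts, and in heart 1, 18 and 22.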
